A study of Mus musculus with 12 samples.

Results

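The comparison described here sets the basolateral amygdala (BLA) of fear-conditioned male mice against the BLA of naive male mice. It rests on 4 of the 12 libraries of the series, chosen by their labels. The conditioned libraries were 1 from C57BL/6 (B6) and 1 from 129S1/SvImJ (S1) mice, labelled fear conditioning (FC), and the naive libraries were 1 from B6 and 1 from S1 mice. All mice were wild type (WT), and every FC library was set against the naive library of its own strain. The other 8 libraries came from the central amygdala (CeA) of the same strains and conditions and from both regions after fear extinction. The CeA libraries serve a test of the difference between regions, while the extinction libraries, deposited in a separate table, are given only as levels. The series set out to find genes related to the impaired fear extinction of S1 mice. Libraries were made from tissue RNA with a stranded mRNA kit, per the labels' protocols. Each group was a single library, and the labels state neither the number of mice behind each library nor their age, nor the time between conditioning and tissue collection. The p-values therefore measure the spread of these libraries around an additive model of strain and conditioning, not the spread between mice.

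In fear conditioning an animal learns that a neutral cue predicts a shock. The BLA, a mostly glutamatergic cell group, receives information on the cue and the shock, and plasticity of its principal neurons is needed to store the association, which the CeA turns into freezing through largely GABAergic projection neurons. Neuronal firing induces immediate early genes such as Fos, Arc and Npas4 and, later, effector genes that alter synapses, and the shock also releases glucocorticoids, which act on transcription in neurons and glia.

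The BLA libraries held 45628847 to 57206071 counts and 17174 to 17526 detected genes. Levels are given as CPM, counts scaled to a library total of 1e6, a scale on which a gene can be compared between libraries but not with another gene. The summed level of 19 BLA excitatory neuron markers was 7807 to 9103 CPM in the 4 BLA libraries and 3968 to 4389 CPM in the 4 CeA libraries, whereas 17 CeA neuron markers summed to 768 to 872 CPM in BLA and 3590.2 to 4214 CPM in CeA. The precursor of ribosomal RNA, Rn45s, took 0.3322% of counts in B6 and 0.1544% in S1 FC BLA, against 0.3721% in B6 and 0.59% in S1 naive BLA.

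Few genes differed between FC and naive BLA beyond the spread of the libraries. By edgeR's quasi-likelihood test with Benjamini-Hochberg adjustment, 13 of 15754 genes tested passed an adjusted p of 0.05 (0.0825%), 7 higher (0.0444%) and 6 lower (0.0381%) after conditioning. At an unadjusted p under 0.05 there were 327 genes higher (2.08%) and 493 lower (3.13%). The strains shared little of their differences. Over the 13774 genes with a mean of at least 1 CPM in BLA, the log2 difference in B6 had a Spearman correlation of 0.069 with that in S1, a description across genes that are not independent replicates. Of the genes tested, 28.3% were higher and 23.4% lower after conditioning in both strains. The number of calls depended on the model. It was 1, Pafah1b1, when all 8 naive and FC libraries were fitted together, and 0 by edgeR without a strain term or without a filter on low counts, where 163 and 666 genes had an unadjusted p under 0.05; DESeq2 called 20.

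**Figure D1:**
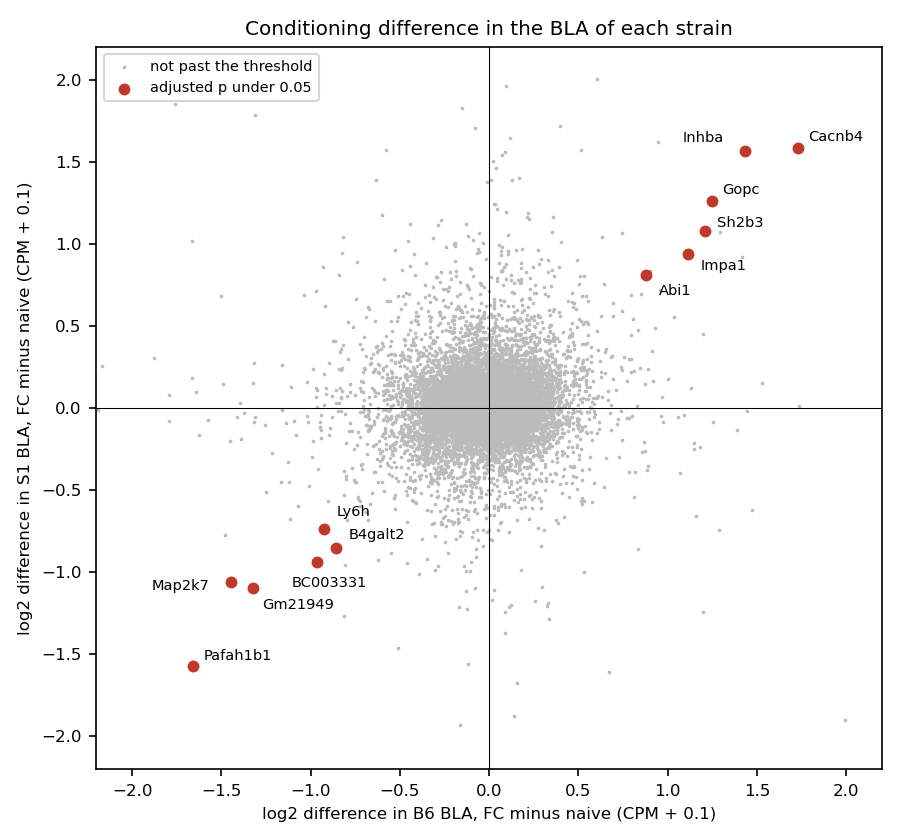
Log2 difference of FC minus naive BLA in B6 (x axis) and in S1 (y axis), computed on CPM + 0.1, for genes with a mean of at least 1 CPM in BLA; 23 genes lie outside the axes. The 12 genes drawn of the 13 past the adjusted threshold, drawn in red and named, lie near the diagonal because the fit measures the spread as the gap between the strain pairs, so their place there is set by how they were called. The grey points are all other genes.

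Inhba was the called gene that is best known from neuronal activity. It encodes the beta A subunit of activin and inhibin, and activin A is made by active neurons and modulates glutamatergic synapses. The gene spans positions 16011851 to 16031609 of chromosome 13 in mm10 (Gene_ID 16323), has 1 transcript in the table and overlaps no other gene. Inhba had 5.77 CPM in B6 and 11.96 CPM in S1 FC BLA, against 2.08 CPM in B6 and 3.97 CPM in S1 naive BLA. Each FC library lay above both naive libraries, as in 14.0% of all genes tested, and S1 lay above B6 in both conditions. Inhba rose 2.88-fold after conditioning (log2 fold change 1.53 ± 0.15 SE, adjusted p = 0.00847 by edgeR, higher in 2 of 2 strain pairs). In CeA it had 7.25 CPM in B6 and 11.8 CPM in S1 FC libraries, against 4.91 and 6.20 CPM in naive B6 and S1 libraries. The CeA differences of 0.55 in B6 and 0.92 in S1 had the same sign, and the difference between the regions did not pass (log2 0.77 ± 0.20, adjusted p = 0.534). After extinction the BLA levels of 4.79 CPM in B6 and 5.74 CPM in S1 lay between those of the naive and FC libraries of each strain. The call was lost in the fit of all 8 libraries (adjusted p = 0.0893) and on the authors' FPKM values (adjusted p = 0.473 at a pseudocount of 1), with the same direction. The proximal promoter of Inhba, 250 bases before to 50 bases after the transcript start, is shown because it is the promoter of the called activity gene. It lies at chr13:16011601-16011900 on the plus strand (RefSeq, GRCm38.p6), and none of the 4 motifs searched below matched in it.
Inhba promoter: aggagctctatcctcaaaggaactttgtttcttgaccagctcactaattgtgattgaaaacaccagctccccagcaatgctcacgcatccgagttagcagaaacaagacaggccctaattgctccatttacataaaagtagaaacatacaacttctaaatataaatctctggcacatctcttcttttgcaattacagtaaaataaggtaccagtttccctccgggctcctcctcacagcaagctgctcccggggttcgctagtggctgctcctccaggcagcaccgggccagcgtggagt

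Of the remaining 6 genes that rose, 5 are described here, and they encode proteins of channels, sorting and signalling. Cacnb4, an auxiliary beta subunit of voltage-gated calcium channels on chromosome 2 at 52428320 to 52676609, had 135 CPM in B6 and 165 CPM in S1 FC BLA, against 40.7 and 54.7 CPM in naive B6 and S1 BLA. It was 3.14-fold higher (log2 fold change 1.65 ± 0.08 SE, adjusted p = 0.000632). Gopc, a Golgi-associated PDZ protein that sorts membrane proteins (chromosome 10, 52337024 to 52382124), had 72.0 and 77.4 CPM in FC B6 and S1, against 30.3 and 32.2 CPM in naive B6 and S1, a log2 fold change of 1.25 ± 0.08 (adjusted p = 0.00166). Sh2b3, an adaptor that restrains cytokine receptor signalling (chromosome 5, 121815481 to 121836859), had 28.5 and 29.3 CPM in FC B6 and S1, against 12.3 and 13.8 CPM in naive B6 and S1 (1.14 ± 0.11, adjusted p = 0.00847). In each of these 3 genes both FC libraries lay far above both naive libraries. Of all genes tested 14.0% had both FC libraries above both naive ones. Sh2b3 overlaps Mir7031, which leaves its reads uncertain.

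Impa1 is the inositol monophosphatase that lithium inhibits (chromosome 3, 10311956 to 10331439). It had 77.4 and 65.8 CPM in FC B6 and S1 BLA, against 35.7 and 34.3 CPM in naive B6 and S1 BLA (1.02 ± 0.09, adjusted p = 0.00834). Abi1 is a subunit of the WAVE complex, which drives actin branching (chromosome 2, 22940074 to 23040241). It had 129.6 and 141 CPM in FC B6 and S1 BLA, against 70.4 and 79.9 CPM in naive B6 and S1 BLA (0.84 ± 0.08, adjusted p = 0.00847). It overlaps Pdss1, so some of its reads may belong to the neighbour.

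Of the 6 genes that fell, Pafah1b1 had the largest log2 difference. It encodes LIS1, the non-catalytic subunit of a platelet-activating factor hydrolase and a regulator of the motor dynein, and lies on chromosome 11 at 74673949 to 74724384. Pafah1b1 had 217 CPM in B6 and 266 CPM in S1 FC BLA, against 684 CPM in B6 and 792 CPM in S1 naive BLA. It was 3.09-fold lower (log2 fold change −1.63 ± 0.09, adjusted p = 0.000632). Both of its transcripts were lower. The coding one had 114 and 142 CPM in FC B6 and S1, against 481 and 528 CPM in naive B6 and S1, and the non-coding one had 103 and 125 CPM in FC B6 and S1, against 203 and 264 CPM in naive B6 and S1. Pafah1b1 was the 1 gene that also passed when all 8 libraries were fitted together (adjusted p = 0.00216 by edgeR). In that fit without a BLA library its log2 fold change was −1.59 to −1.67. Such a fit takes the BLA difference from the intact strain pair and the spread from CeA, so it tests no spread within BLA.

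Map2k7, the kinase that activates JNK (chromosome 8, 4238740 to 4247897), had 29.1 and 31.6 CPM in FC B6 and S1 BLA, against 79.7 and 65.9 CPM in naive B6 and S1 BLA (log2 fold change −1.27 ± 0.11, adjusted p = 0.00834). B4galt2, a galactosyltransferase of glycoproteins (chromosome 4, 117873000 to 117883476), had 48.4 and 46.6 CPM in FC B6 and S1, against 87.8 and 84.2 CPM in naive B6 and S1 (−0.87 ± 0.08, adjusted p = 0.00847). Ly6h, a membrane-anchored protein that limits nicotinic receptors (chromosome 15, 75564745 to 75567182), had 142 and 134 CPM in FC B6 and S1, against 269.5 and 224 CPM in naive B6 and S1 (−0.84 ± 0.09, adjusted p = 0.0136). The other 2 genes that fell are left outside the naming rule as predicted or clone-named genes and are given here because the count is small. Gm21949 fell by 1.23 on the log2 scale (adjusted p = 0.00847) and overlaps Iqcj and Schip1, so the assignment of its reads is uncertain, and BC003331, which overlaps Tpr, fell by 0.96 (adjusted p = 0.00847).

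Most called genes also took high and low levels among the libraries outside the comparison. Cacnb4 had 166 CPM in B6 and 213 CPM in S1 naive CeA, above FC BLA, and 25.9 CPM in B6 and 27.7 CPM in S1 extinction BLA, below naive BLA. Pafah1b1 had 705 CPM in B6 but 220.5 CPM in S1 extinction BLA, and 540.3 to 634 CPM in the 4 naive and FC libraries of CeA. B4galt2 ran from 36.2 to 90.0 CPM in the 8 libraries outside the comparison. Over those 8 libraries the highest level of a called gene was 1.83 to 8.24 times its lowest. In B6 extinction BLA 7 of the 13 genes, and in S1 extinction BLA 8, were nearer to the FC than to the naive BLA mean. Of the 13 genes, 2 had the same direction as in BLA in both strains of CeA. The table lists 2 or more transcripts for 11 of the 13 (84.6%), against 35.6% of the 13774 genes at a mean of 1 CPM or more, and 5 of the 13 overlap another gene. In some called genes, B4galt2 and Gopc among them, a transcript moved against the gene sum. B4galt2 NR_045570 had 20.3 and 14.3 CPM in FC B6 and S1 BLA, against 0.0910 and 2.94 CPM in naive B6 and S1. Gopc NM_053187 had 4.51 and 5.09 CPM in FC B6 and S1, against 11.2 and 12.7 CPM in naive B6 and S1. The transcripts of Abi1 also moved both ways, while both transcripts of Pafah1b1 fell. Whether the assignment of reads to transcripts moved these levels was not tested.

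**Figure D2:**
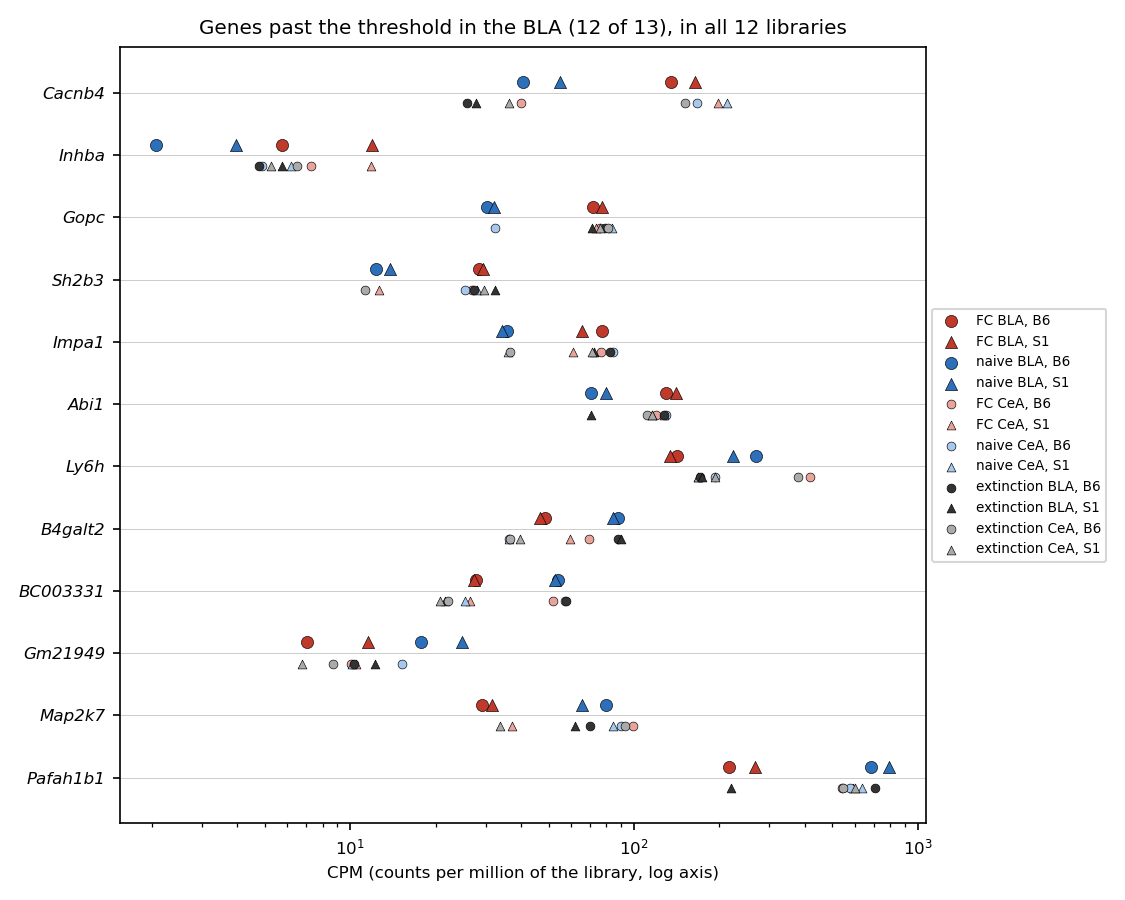
Level of 12 of the 13 genes past the adjusted threshold in all 12 libraries (CPM, log axis), with circles for B6 and triangles for S1. Large red points are FC BLA and large blue points naive BLA, on the upper line of each gene, and the small points below them are the CeA and extinction libraries; for most genes the small points fall on both the high and the low level, as for Cacnb4 at 25.9 to 213 CPM.

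No transcription factor of the immediate early response passed the adjusted threshold, and the median of the list was 0.12. All 23 members were tested. This list and those below were chosen with earlier results of these data known. The shares of all genes are therefore given as description and are no independent yardstick for the list counts. At an unadjusted p under 0.05, 6 were higher and 0 lower by edgeR (4 in all by DESeq2), against 2.08% higher and 3.13% lower of all genes, and the median over all genes tested was 0.00. In both strains 10 members were higher and 4 lower, against 28.3% and 23.4% of all genes. In CeA the list median was 0.21. Fosb, a partner of Jun in the AP-1 factor, had 16.0 CPM in each FC library, against 11.6 CPM in B6 and 11.1 CPM in S1 naive BLA (log2 fold change 0.48 ± 0.10, adjusted p = 0.577). Fos, the classical marker of recent firing, had 17.2 CPM in B6 and 8.52 CPM in S1 FC BLA, against 9.96 CPM in B6 and 6.90 CPM in S1 naive BLA. The Fos groups overlapped, since FC S1 lay below naive B6, although each strain was higher after conditioning (0.55 ± 0.14, adjusted p = 0.801). Npas4, a factor induced by calcium entry, had 21.1 and 17.8 CPM in FC B6 and S1, against 14.4 and 15.1 CPM in naive B6 and S1. Btg2, an antiproliferative cofactor, had 10.0 and 10.5 CPM in FC B6 and S1, against 7.76 CPM in both naive libraries. Jun and Egr3 were the other 2 members at an unadjusted p under 0.05, with fold changes of 0.23 and 0.20. Egr1, another standard activity marker, had 125 and 127 CPM in FC B6 and S1, against 125 and 139.9 CPM in naive B6 and S1 (−0.09). In the fit of all 8 libraries 5 members had an unadjusted p under 0.05, and the count was 2 without B6 FC BLA or without B6 naive BLA.

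Among effector genes of the activity response, Inhba passed the adjusted threshold. Of 28 members, all tested, 1 rose past it, against 0.0444% of all genes. At an unadjusted p under 0.05, 11 were higher and 0 lower, against 2.08% and 3.13% of all genes. The list median was 0.22, with 0.34 in B6 and 0.15 in S1. In both strains 20 members were higher and 1 lower, against 28.3% and 23.4% of all genes. The median in CeA was 0.22. Arc, which drives endocytosis of AMPA receptors, had 63.8 CPM in B6 and 48.7 CPM in S1 FC BLA, against 39.6 CPM in B6 and 39.01 CPM in S1 naive BLA (0.49 ± 0.11, adjusted p = 0.598). Nptx2, a secreted pentraxin that clusters AMPA receptors, had 107 and 89.0 CPM in FC B6 and S1, against 74.2 and 75.8 CPM in naive B6 and S1 (0.37 ± 0.09, adjusted p = 0.796). Gadd45b, which takes part in activity-driven DNA demethylation, had 14.8 and 12.5 CPM in FC B6 and S1, against 10.0 and 9.16 CPM in naive B6 and S1. In each of these 3 genes both FC libraries lay above both naive libraries, a separation seen in 14.0% of all genes tested, with 10.3% separated the other way. Csrnp1, the phosphatases Dusp1 and Dusp4, Rgs2, Vgf, Sgk1 and Cdkn1a made up the rest of the 11, with fold changes from 0.20 (Vgf) to 0.65 (Cdkn1a). Bdnf, the neurotrophin most studied in fear learning, had 57.9 CPM in B6 and 53.2 CPM in S1 FC BLA, against 41.9 CPM in B6 and 51.3 CPM in S1 naive BLA, a difference of 0.47 in B6 and 0.05 in S1 (unadjusted p = 0.0535). Its CeA differences were −0.99 in B6 and −0.24 in S1. Homer1 was at 0.09 and Per1 at −0.07. The count of 11 was 7 with DESeq2 and 7 in the fit of all 8 libraries, which gave 3 without B6 FC BLA or without B6 naive BLA.

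**Figure D3:**
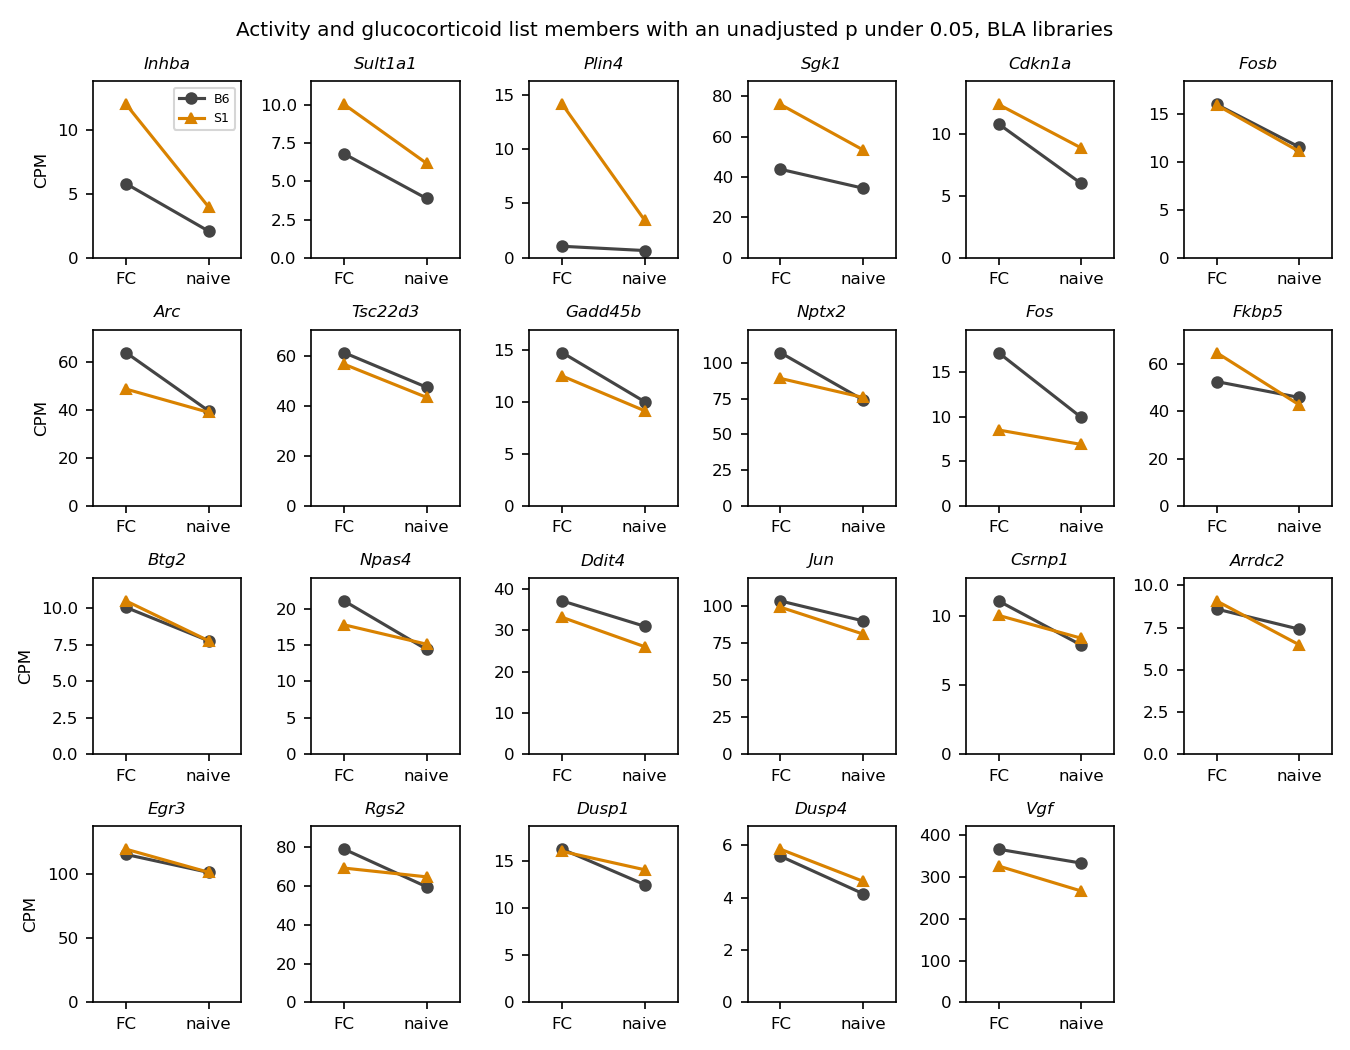
Level in the 4 BLA libraries (CPM, axes from 0) of the 23 immediate early, activity effector and glucocorticoid-induced genes with an unadjusted p under 0.05, FC on the left and naive on the right, joined within B6 (dark circles) and S1 (orange triangles). Every line is higher on the FC side, and Plin4 has the widest gap in S1 relative to its level, at 14.1 CPM in FC and 3.44 CPM in naive BLA.

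Promoters of Fos and Btg2 are shown because the cAMP response element, the site bound by CREB, is a known link from synaptic activity to these genes. The element searched was TGACGTCA and its core TGACG on both strands, the core being part of the element. Among 32851 RefSeq promoter windows of 300 bases, 1.79% held the full element and 20.8% the core. Of the 23 genes drawn in the plot of activity and glucocorticoid genes, 18 had a window in the table, and 2 of these held the full element (Btg2 and Dusp1) and 9 the core. A gene counted as matched if any of its windows did. Genes can have several windows, so the shares of single windows are not a like background for these counts. The serum response element, held by 1.63% of all windows, matched in 0 of the 18. Only the windows of 300 bases were searched. An element outside them would have been missed, so the search cannot tell whether these genes lack it. A match is a description of the letters, not of binding. The Btg2 window (chr1:134079106-134079405, minus strand) and the Fos window (chr12:85473640-85473939, plus strand; GRCm38.p6) have matches in capitals, the full element starting 166 bases before the Btg2 start and the core starting 129 and 66 bases before the Fos start.
Btg2 promoter: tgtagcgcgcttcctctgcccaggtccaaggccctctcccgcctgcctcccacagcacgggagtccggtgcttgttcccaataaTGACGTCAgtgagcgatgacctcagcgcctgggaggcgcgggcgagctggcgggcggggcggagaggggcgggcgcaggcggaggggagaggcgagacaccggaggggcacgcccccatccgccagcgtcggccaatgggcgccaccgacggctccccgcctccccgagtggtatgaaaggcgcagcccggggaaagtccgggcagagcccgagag
Fos promoter: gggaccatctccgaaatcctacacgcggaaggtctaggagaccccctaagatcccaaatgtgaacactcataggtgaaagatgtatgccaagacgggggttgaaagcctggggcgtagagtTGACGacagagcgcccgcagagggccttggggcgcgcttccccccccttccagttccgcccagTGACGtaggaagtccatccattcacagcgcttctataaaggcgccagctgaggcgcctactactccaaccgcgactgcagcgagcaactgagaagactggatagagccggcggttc

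Of 19 glucocorticoid-induced genes, 18 were tested and 1, Lcn2, had too few counts. None passed the adjusted threshold by edgeR, and 8 were higher and 0 lower at an unadjusted p under 0.05 (7 by DESeq2), against 2.08% higher of all genes. The median was 0.27, with 0.16 in B6 and 0.36 in S1, and 13 members were higher and 0 lower in both strains, against 28.3% and 23.4% of all genes. Sult1a1, a sulfotransferase, had 6.80 and 10.0 CPM in FC B6 and S1 BLA, against 3.88 and 6.18 CPM in naive B6 and S1 BLA (0.74 ± 0.13, adjusted p = 0.347). Fkbp5, a cochaperone that lowers the hormone affinity of the glucocorticoid receptor, had 52.5 and 64.7 CPM in FC B6 and S1, against 45.8 and 42.7 CPM in naive B6 and S1 (0.39 ± 0.11, adjusted p = 0.889). Tsc22d3 encodes GILZ, a mediator of glucocorticoid action. It had 61.3 and 56.7 CPM in FC B6 and S1, against 47.5 and 43.5 CPM in naive B6 and S1 (0.37 ± 0.08, adjusted p = 0.613). In each of Sult1a1, Fkbp5 and Tsc22d3 both FC libraries lay above both naive libraries. Of all genes tested 14.0% separated this way and 10.3% the other way.

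The lipid droplet gene Plin4 showed the largest member difference, 1.56 ± 0.29 (adjusted p = 0.351). It had 1.05 CPM in B6 and 14.1 CPM in S1 FC BLA, against 0.655 CPM in B6 and 3.44 CPM in S1 naive BLA, so that the S1 libraries set most of it. Sgk1, a kinase induced by both hormone and activity and a member of both lists, had 43.8 and 75.9 CPM in FC B6 and S1, against 34.5 and 53.5 CPM in naive B6 and S1 (0.42 ± 0.08, adjusted p = 0.495). Cdkn1a, Ddit4 and Arrdc2 completed the 8. Klf9 and Zbtb16, standard hormone targets, had fold changes of 0.07 and −0.03. The fit of all 8 libraries also gave 8 members. Without S1 FC BLA or without S1 naive BLA it gave 3, and 13 of the 18 were then higher and 5 lower. The same list had a median of 0.22 in CeA. A canonical glucocorticoid response element, AGAACA and TGTTCT with any 3 bases between them, which reads alike on both strands, matched in 3 of the 32851 promoter windows (0.00913%) and in 1 of the 18 genes with a window, Sgk1. That Sgk1 window is 1 of 6 for this gene (chr10:21993640-21993939, plus strand, GRCm38.p6) and is shown because of the match, in capitals, starting 189 bases before the start.
Sgk1 promoter: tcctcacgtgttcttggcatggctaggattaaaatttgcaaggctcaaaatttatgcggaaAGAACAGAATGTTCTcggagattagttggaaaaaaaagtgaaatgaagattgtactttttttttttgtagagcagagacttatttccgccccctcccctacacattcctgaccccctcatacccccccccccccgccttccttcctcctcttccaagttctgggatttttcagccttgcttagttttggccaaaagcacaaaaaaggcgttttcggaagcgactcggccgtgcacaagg

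Of 21 heat shock proteins and chaperones tested, 0 passed the adjusted threshold by edgeR, 4 were higher and 0 lower at an unadjusted p under 0.05 (2 by DESeq2), against 2.08% higher and 3.13% lower of all genes. In both strains 14 were higher and 0 lower, against 28.3% and 23.4% of all genes. Hspa5, the chaperone BiP of the endoplasmic reticulum, had 296 and 283 CPM in FC B6 and S1 BLA, against 230.0 and 235 CPM in naive B6 and S1 BLA (0.31 ± 0.08, adjusted p = 0.893). Calr, calreticulin, had 426 and 409 CPM in FC B6 and S1, against 341 and 355 CPM in naive B6 and S1 (0.25). The small heat shock protein gene Hspb1 (0.62) and Hspa1b (0.37) were the other 2. The list median was 0.12, with 0.23 in B6 and 0.05 in S1. The fit of all 8 libraries gave 5 members, with 2 when B6 FC BLA or B6 naive BLA was left out and 7 when S1 FC BLA or S1 naive BLA was left out.

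Oligodendrocyte markers had a median log2 difference of −0.27 between FC and naive BLA. In bulk tissue, fewer cells of a type and less RNA per cell cannot be told apart. All 12 markers were tested. None passed the adjusted threshold by edgeR, while 0 were higher and 8 lower at an unadjusted p under 0.05 (8 by DESeq2), against 3.13% lower of all genes. In both strains 10 of the 12 were lower, against 23.4% of all genes, and the median was −0.34 in B6 and −0.20 in S1. Mag, a myelin glycoprotein next to the axon, had 138 and 103 CPM in FC B6 and S1 BLA, against 182 and 127 CPM in naive B6 and S1 BLA (−0.36 ± 0.08, adjusted p = 0.613). Opalin, a membrane protein of mature oligodendrocytes, had 10.96 and 11.9 CPM in FC B6 and S1, against 15.8 and 16.1 CPM in naive B6 and S1 (−0.49 ± 0.10, adjusted p = 0.577). Mbp, myelin basic protein, had 1760.1 and 1275 CPM in FC B6 and S1, against 2195 and 1452 CPM in naive B6 and S1 (−0.26 ± 0.10). Cnp, Ugt8a, Mog, Ermn and Cldn11 were the other 5. Mobp, a basic protein of myelin, went opposite ways in the strains, with −0.37 in B6 and 0.12 in S1.

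The summed level of the 12 markers was 3996 CPM in B6 and 3149 CPM in S1 FC BLA, against 4938 CPM in B6 and 3405 CPM in S1 naive BLA. In CeA the median was 0.01 and the sums were 3863 and 1908 CPM in FC B6 and S1, against 3498 and 1881 CPM in naive B6 and S1. All 5 members with 1 transcript had an unadjusted p under 0.05 when such genes were fitted alone. The fit of all 8 libraries gave 7 members at an unadjusted p under 0.05, with 2 when B6 FC BLA and 3 when B6 naive BLA was left out. Precursor markers were not lower as a list (median −0.03). Of 9 tested 0 were higher and 1, Sox10, was lower at an unadjusted p under 0.05, with 39.7 and 34.4 CPM in FC B6 and S1, against 49.7 and 37.8 CPM in naive B6 and S1.

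**Figure D4:**
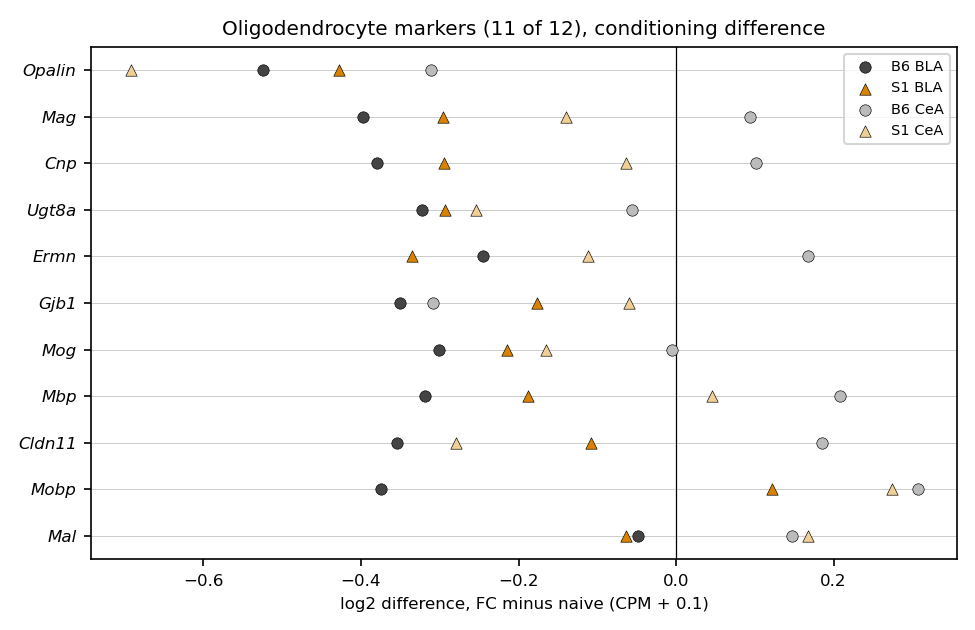
Log2 difference of FC minus naive (CPM + 0.1) for 11 of the 12 oligodendrocyte markers, with dark circles for B6 BLA, orange triangles for S1 BLA and pale symbols for CeA. In BLA 10 of the 11 lie left of 0 in both strains, Mobp being the exception in S1, while the pale CeA points lie on both sides of 0.

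No vascular, blood or glial marker passed the adjusted threshold by edgeR. Of 14 endothelial and mural markers 0 were higher and 3 lower at an unadjusted p under 0.05, against 2.08% and 3.13% of all genes. In both strains 9 were lower, against 23.4% of all genes, and the median was −0.20. Tek, the angiopoietin receptor of endothelial cells, had 10.0 and 8.85 CPM in FC B6 and S1 BLA, against 11.2 and 12.3 CPM in naive B6 and S1 BLA. Of the 5 blood genes tested 2 were higher and 0 lower at an unadjusted p under 0.05, the median was 0.77 in B6 and 0.02 in S1, and the summed level was 225 CPM in B6 and 143 CPM in S1 FC BLA, against 138 CPM in B6 and 72.0 CPM in S1 naive BLA. Hba-a2, an alpha globin with a near-identical copy that makes its counts uncertain, had 114 and 74.0 CPM in FC B6 and S1, against 73.9 and 35.9 CPM in naive B6 and S1 (0.82 ± 0.11, adjusted p = 0.0559). Microglial markers had 0 of 13 higher and 2 lower, including the integrin gene Itgam (−0.31), with a median of −0.01. Astrocyte markers had 1 of 12 higher, the connexin gene Gjb6 (0.45), and 1 lower, with a median of −0.04. The part of these cell types in the gene results was not tested.

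Of 15 striatal markers tested 0 passed the adjusted threshold by edgeR. At an unadjusted p under 0.05, 6 were higher and 0 lower, against 2.08% and 3.13% of all genes. The median of the 15 markers was 0.15. Their sum was 701 CPM in B6 and 907 CPM in S1 FC BLA, against 712 CPM in B6 and 710.2 CPM in S1 naive BLA, and the median difference was 0.04 in B6 and 0.46 in S1. Drd2, the dopamine receptor of indirect-pathway neurons, had 4.21 and 9.33 CPM in FC B6 and S1, against 4.02 and 4.84 CPM in naive B6 and S1. The fit of all 8 libraries gave 2 members, and 0 without S1 FC BLA or without S1 naive BLA. Tac1, which encodes substance P, was the member with the smallest p and was higher in both strains, with 15.4 and 13.8 CPM in FC B6 and S1, against 11.9 and 10.2 CPM in naive B6 and S1 (0.39 ± 0.10, adjusted p = 0.815). The striatum adjoins the amygdala, and its share of the dissected tissue was not measured.

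The other neuronal marker lists showed no common direction. Of all genes 2.08% were higher and 3.13% lower at an unadjusted p under 0.05. BLA excitatory neuron markers had 2 of 19 higher and 3 lower at an unadjusted p under 0.05, with a median of −0.03 and sums of 7807 and 9103 CPM in FC B6 and S1 BLA, against 8226 and 8929.9 CPM in naive B6 and S1 BLA. Ppp1r1b (0.31), among the higher ones, is also on the striatal list and counts in both. It had 97.2 to 141 CPM in the naive and FC libraries of BLA but 637 to 978 CPM in those of CeA. CeA neuron markers had 2 of 16 tested higher and 1 lower (median −0.01), and intercalated cell markers 1 of 9 higher and 2 lower (median −0.14). Tshz1, a factor of intercalated cells, is on both of these lists and was the lower member of the CeA list. Tshz1 had 40.0 and 47.1 CPM in FC B6 and S1, against 51.8 and 56.5 CPM in naive B6 and S1 (−0.33 ± 0.08, adjusted p = 0.756). Markers of the neighbouring cortex and claustrum had 1 of 15 higher, the imprinted gene Nnat (0.29), and 1 lower (median 0.01). Interneuron markers had 2 of 13 higher and 1 lower (median 0.07). Vip, the peptide of disinhibitory interneurons, had 44.0 and 30.8 CPM in FC B6 and S1, against 32.4 and 23.7 CPM in naive B6 and S1 (0.40 ± 0.10, adjusted p = 0.687). Ependymal and choroid plexus markers summed to 8.93 and 8.64 CPM in FC B6 and S1, against 8.34 and 8.70 CPM in naive B6 and S1, with 1 of 6 tested higher, Kl (0.66), and 3 of the 11 at 0 in every BLA library.

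Synaptic transmission genes were near the background of 2.08% higher and 3.13% lower at an unadjusted p under 0.05. Of 34 glutamate transmission genes 0 were higher and 2 lower at an unadjusted p under 0.05 (median −0.07), and of 24 GABA transmission genes 0 were higher and 0 lower (median 0.02). Grik3, a kainate receptor subunit, had 95.5 and 130.0 CPM in FC B6 and S1 BLA, against 132 and 156 CPM in naive B6 and S1 BLA (−0.38 ± 0.09, adjusted p = 0.613). Gria2, the AMPA receptor subunit that blocks calcium entry, was at −0.81 in B6 and −0.04 in S1. Slc32a1, the vesicular transporter of GABA, had the smallest p of its list (−0.14, unadjusted p = 0.126). Vesicle release genes had 1 of 26 higher, Syn3 (0.24), and 0 lower (median −0.01). Monoamine and acetylcholine receptor genes had 2 of 25 higher, and 0 lower (median −0.04). Adra2a, the noradrenaline autoreceptor, had 25.8 and 33.999 CPM in FC B6 and S1, against 24.6 and 19.0 CPM in naive B6 and S1, and the S1 pair carried its difference (0.44). Neurotrophin and CREB signalling genes had 0 of 20 higher and 0 lower (median −0.02).

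Neuropeptide genes had 5 of 31 tested higher and 2 lower at an unadjusted p under 0.05, against 2.08% and 3.13% of all genes. The list median was −0.02. Besides Vip and Tac1, Oxtr, the oxytocin receptor, had 17.7 and 21.3 CPM in FC B6 and S1 BLA, against 15.1 and 12.8 CPM in naive B6 and S1 BLA (0.47 ± 0.13, adjusted p = 0.916). Crh, the peptide that starts the hormonal stress response, had 3.30 and 2.11 CPM in FC B6 and S1, against 2.26 and 1.16 CPM in naive B6 and S1 (0.68 ± 0.23, adjusted p = 0.918). Penk (0.26) was the fifth, and it is also a striatal marker. The lower members were the receptor genes Tacr1, for substance P, with 8.44 and 8.26 CPM in FC B6 and S1, against 10.1 and 9.97 CPM in naive B6 and S1, and Oprd1, for enkephalins, with 20.1 CPM in both FC libraries, against 23.2 and 23.9 CPM in naive B6 and S1.

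Metabolic, clock, matrix and lipid lists completed the survey. Respiratory chain subunits had 1 of 46 higher, Ndufb2 (0.25), and 0 lower at an unadjusted p under 0.05. The shares over all genes were 2.08% higher and 3.13% lower. In both strains 24 subunits were higher and 0 lower, against 28.3% and 23.4% of all genes. The list median was 0.08, set by B6 (0.17) more than by S1 (0.01). Ribosomal proteins had 1 of 45 higher, Rpl34, whose pseudogene copies make it uncertain, and 0 lower (median 0.03). Clock genes had 1 of 19 tested higher and 2 lower (median −0.08). Nr1d1, the repressor REV-ERB alpha, had 104 and 96.4 CPM in FC B6 and S1 BLA, against 128 and 113 CPM in naive B6 and S1 BLA (−0.28 ± 0.08, adjusted p = 0.913), and its target Arntl was at 0.26. The labels do not state the hour of collection. Matrix and perineuronal net genes had 1 of 30 higher and 3 lower (median −0.05). Tnc, the glycoprotein tenascin C, had 29.1 and 26.5 CPM in FC B6 and S1, against 38.2 and 53.6 CPM in naive B6 and S1 (−0.71 ± 0.15, adjusted p = 0.495). Phospholipase A2 and platelet-activating factor hydrolase genes had 0 of 16 higher and 2 lower, Pafah1b1 and Pla2g4e (−0.33, with 4.77 and 23.7 CPM in FC B6 and S1, against 6.59 and 27.3 CPM in naive B6 and S1), and eicosanoid and endocannabinoid genes 1 of 25 higher, Napepld (0.29), and 0 lower. Nuclear and long non-coding RNAs had 0 of 10 in either direction, Y-linked genes 1 of 4 lower, Ddx3y (−0.26), and Rn45s, the 1 ribosomal RNA transcript tested, was at −1.06 (adjusted p = 0.918).

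**Figure D5:**
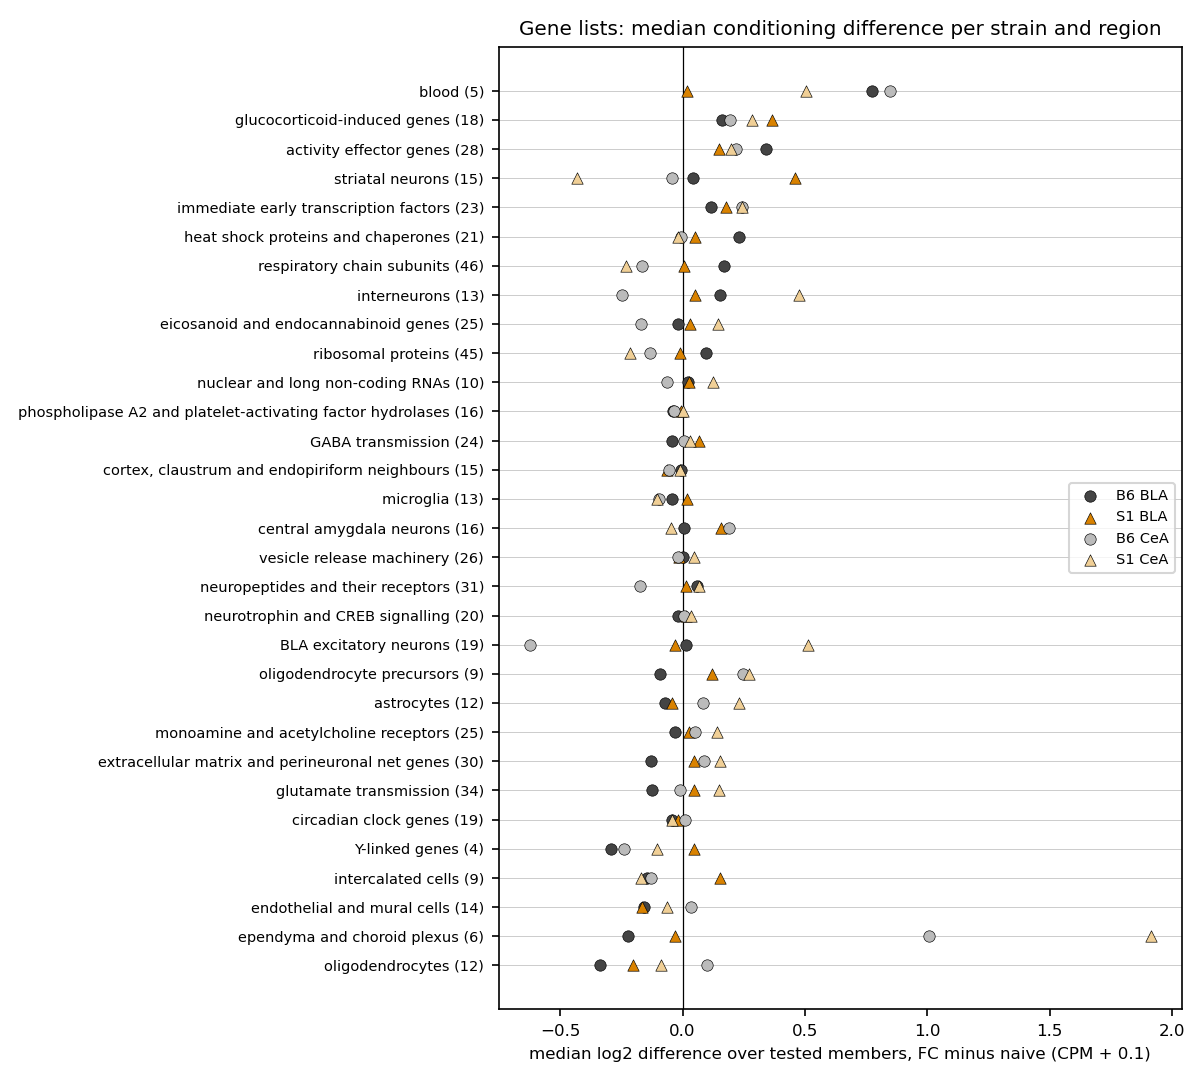
Median log2 difference of FC minus naive (CPM + 0.1) over the tested members of 31 gene lists, with the number tested in brackets, for B6 and S1 in BLA (dark circles, orange triangles) and in CeA (pale symbols). Immediate early, activity effector, glucocorticoid and blood lists lie right of 0 in all 4 strain and region pairs. Oligodendrocyte markers lie left of 0 in both BLA pairs, and the striatal list is high in the S1 BLA pair alone (0.46).

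Beyond the called genes, those with the smallest p-values came from several families. Higher but not past the threshold were Psmf1, a proteasome inhibitor (log2 fold change 0.83, adjusted p = 0.0559), Creb5, a CREB family factor (1.33, adjusted p = 0.305), and the protocadherin Pcdhgb4 (0.60, adjusted p = 0.298). Creb5 had 3.01 and 5.32 CPM in FC B6 and S1 BLA, against 1.51 and 1.67 CPM in naive B6 and S1 BLA. Its groups did not overlap, as in 14.0% of all genes tested. Lower but not past the threshold was Axl, a receptor kinase that clears apoptotic cells (−0.91, adjusted p = 0.0639), with 22.5 and 27.6 CPM in FC B6 and S1, against 48.8 and 44.1 CPM in naive B6 and S1. Pde8b, which degrades cAMP, had 23.9 and 27.3 CPM in FC B6 and S1, against 44.8 and 40.5 CPM in naive B6 and S1 (−0.75, adjusted p = 0.121). Others of this group were Apod (−0.85), a lipid carrier of glia, Pcdhgb7 (−0.79), Itgb4 (−0.68), Padi2 (−0.55) and Slc7a11 (−0.45). Padi2, an enzyme that citrullinates myelin proteins, is not on the oligodendrocyte list. Padi2 had 16.4 and 14.3 CPM in FC B6 and S1, against 23.7 and 21.0 CPM in naive B6 and S1. The overlapping exons of the protocadherin gamma cluster make the assignment of its reads uncertain.

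The conditioning difference of BLA was set against that of CeA in a fit of the 8 naive and FC libraries. Of 16274 genes 3 passed (0.0184%), 1 with a higher (0.00614%) and 2 with a lower (0.0123%) difference in BLA, and 9.35% had an unadjusted p under 0.05. Pafah1b1 was −1.66 and −1.57 in B6 and S1 BLA, against −0.09 and −0.10 in B6 and S1 CeA (difference −1.54 ± 0.09, adjusted p = 0.0122). B4galt2 was lower after conditioning in BLA (−0.86 and −0.85) but higher in CeA (0.94 and 0.72), with a difference of −1.71 ± 0.12 (adjusted p = 0.0178). It did not pass without any 1 of the BLA libraries (adjusted p 0.0576 to 0.068). Hist2h2aa2, a histone gene with an identical neighbour, passed with a fitted difference of 7.80, which is no measure of size because it rests on CeA libraries below 3 counts. In CeA it had 0.0443 and 0.0380 CPM in FC B6 and S1, under the 3-count floors of 0.0665 and 0.057 CPM, against 11.9 and 6.25 CPM in naive B6 and S1. In BLA it had 7.62 and 3.67 CPM in FC B6 and S1, against 6.52 and 3.51 CPM in naive B6 and S1. Abi1 (0.96, adjusted p = 0.113) and Alcam, an adhesion molecule (−1.02, adjusted p = 0.33), were among the next genes and did not pass. Without 1 of the 4 BLA libraries the count was 11 to 15, and without 1 of the CeA libraries 88 to 93. In CeA the BLA excitatory marker list had a median difference of −0.62 in B6 and 0.51 in S1, so that the marker content of the CeA pairs was unequal. Its part in the regional differences was not tested.

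Whether conditioning moved the BLA of S1 and B6 mice differently was tested in the same 8 libraries. In this fit the spread comes from CeA alone. Its p-values therefore measure no spread within BLA, and a strain difference cannot be told apart from 1 deviating BLA library. Of 16689 genes 7 passed (0.0419%), 5 with a higher (0.03%) and 2 with a lower (0.012%) difference in S1, and 4.52% had an unadjusted p under 0.05. In 6 of the 7 genes, all but Ube2v1, 1 library stood far below the other 3. Lars2, a mitochondrial tRNA synthetase, had 342 CPM in B6 and 200.3 CPM in S1 FC BLA, against 17.7 CPM in B6 and 471 CPM in S1 naive BLA (difference −5.51, adjusted p = 0.00281). Jund, an AP-1 factor, had 8.85 CPM in B6 FC BLA and 106 to 120.2 CPM in the other 3 libraries (3.94, adjusted p = 0.00821), and it is the member of the immediate early list that differed between strains. Cers1, a ceramide synthase that overlaps Gdf1 and Upf1, had 3.27 CPM in B6 FC BLA and 40.8 to 63.6 CPM in the other 3 (4.33, adjusted p = 0.00821). Gp1bb, a platelet glycoprotein that overlaps Sept5, had 6.25 CPM in S1 naive BLA and 176 to 214 CPM in the other 3 (4.71, adjusted p = 0.00821).

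Ube2v1, a ubiquitin-conjugating enzyme variant, had 46.9 and 151 CPM in FC B6 and S1 BLA, against 159 and 41.8 CPM in naive B6 and S1 BLA (3.61, adjusted p = 0.00821), so the strains moved in opposite directions. Outside the comparison Ube2v1 had 137 to 173 CPM. Cds2, a phospholipid enzyme and the last of the 7, had 172 CPM in S1 naive BLA and 591.0 to 658 CPM in the other 3 (1.98, adjusted p = 0.0388). It had 546 to 715 CPM outside the comparison. Cds2 lies outside the naming rule and is given to complete the count. Hbb-bs, a beta globin that shares reads with Hbb-b1, had 0 counts in S1 FC BLA and 1144 in S1 naive BLA, at least 400.4-fold lower against a floor of 3 counts in the FC library, and 72.6 CPM in FC against 41.6 CPM in naive B6 BLA. Hbb-b1 ran the other way in S1, with 49.2 CPM in FC and 0.0877 CPM in naive BLA. With the strain difference taken over both regions in place of BLA alone, 7 genes passed, of which 1, Hbb-bs, was among these 7, and Lars2, Jund, Cers1, Ube2v1 and Gp1bb did not pass (adjusted p = 0.966 each). None of the 23 activity and glucocorticoid genes drawn above passed this test or the test between regions.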

How the data were processed

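RNA of 12 libraries was described, of which 4 BLA libraries entered the comparison, grouped by the strain and treatment in their labels. The authors deposited raw read counts per transcript on mm10, with transcript lengths, and FPKM values per gene, made with StringTie per the submitters' processing notes. The aligner, the versions and the strand setting of the counting were not stated. The transcript counts of the deposited table were summed per Gene_ID here (36779 transcripts, 24531 genes), and 1 count column that matched no sample was left out.

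The gene sums were fitted with edgeR 4.0.16 (R 4.3.3; TMM scaling, filterByExpr, quasi-likelihood F test, trended dispersion, Benjamini-Hochberg adjustment, threshold 0.05) on a model of strain plus conditioning with 1 residual degree of freedom. The differences between regions and between strains were interaction terms in the 8 naive and FC libraries, with 2 residual degrees of freedom between regions and 1 between strains, where the spread comes from CeA. Per-strain differences are log2 ratios of CPM + 0.1. A floor of 3 counts was 0.0524 to 0.0657 CPM in the BLA libraries, and floors cover counting error only. No 2 libraries held identical values.

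Alternatives were other scalings and filters, DESeq2 1.42.0, limma 3.58.1 on counts or on the authors' FPKM values with a pseudocount of 1 or 0.1, other models, and leaving out each library. The members and gene lists were chosen with earlier results of these data known. Named genes were up to 12 in each direction, with a mean of at least 1 CPM and the same sign in both strains: those past the threshold, then the smallest p-values. Predicted and clone-named genes were left out. The smallest p of each list, and up to 6 genes of smallest p in each difference test, were added, and any other gene was chosen after its values were seen. Some genes that count in these totals are not reported here by name. Promoters come from RefSeq (GRCm38.p6).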

Additional observations from a re-analysis of the deposited data

Results flagged for a closer look

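A set of 12 values drew attention because effects differed between regions or strains. Between regions, the BLA minus CeA difference passed its test for Pafah1b1 (−1.54), B4galt2 (−1.71) and Hist2h2aa2 (7.80), the last resting on CeA libraries below 3 counts. For Cacnb4 (2.71) and Abi1 (0.96) both BLA pairs moved one way and both CeA pairs the other, and the test of the difference did not pass (adjusted p 0.534 and 0.113 by edgeR).

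Between strains, the S1 minus B6 difference passed its test for Lars2 (−5.51), Jund (3.94), Cers1 (4.33), Ube2v1 (3.61), Gp1bb (4.71) and Cds2 (1.98). That test takes its spread from CeA and measures none within BLA. For Hbb-bs the fitted difference of −14.13 depends on a library with 0 counts and is no bound. Groups here are single libraries, so no sample could be tested as standing apart within its group.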

How the results depend on the processing

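The count of 13 genes changed in BLA was 0 without the filter on low counts (666 at an unadjusted p under 0.05), 0 without a strain term (163), 1 with all 8 libraries (819), 20 with DESeq2, 20 with a robust spread, and 10 to 18 when a BLA library was left out of the 8-library fit, each time sharing 1 gene with the 13. DESeq2's size factors gave 19, limma 13 on counts and 13 or 14 on FPKM values (pseudocount 1 or 0.1), and genes with 1 transcript alone 18. The 3 genes of the region test became 23 with DESeq2, 5 with a robust spread and 11 to 93 without a library. The 7 genes of the strain test became 36 with DESeq2 and 22 with a robust spread. Taken over both regions, the strain difference gave 7 genes that shared 1, Hbb-bs, with the 7 in BLA. No library could be left out, because no residual degree of freedom was left.

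Fits without a BLA library drew the BLA difference from the intact strain pair and the spread from CeA. Members at an unadjusted p under 0.05 went as follows. Immediate early factors had 6, against 3 without a strain term and 2 to 4 without a library. Activity effectors had 11, against 7 with DESeq2, 7 with all 8 libraries, 5 without a strain term and 3 to 10 without a library. Glucocorticoid genes had 8, against 3 without a strain term and 3 to 8 without a library. Heat shock genes had 4, against 2 with DESeq2 and 2 to 7 without a library. Oligodendrocyte markers had 8, against 1 without a strain term, 5 with 1-transcript genes and 2 to 8 without a library. Striatal markers had 6, against 2 without a filter, 2 with DESeq2, 2 with all 8 libraries, 2 with 1-transcript genes, 1 without a strain term and 0 to 8 without a library. The cause of these shifts was not tested. Among the called genes that the naming rule covers, no value past its threshold changed sign under any alternative run. Gm21949, BC003331 and Cds2 were not part of this check. The robust spread and the 1-transcript fit were chosen after seeing the data.

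No paired analysis was possible because each group has 1 library, numbered 1, so the numbers pair nothing. The pairing by strain is part of the model. With 1 library a group and 1 residual degree of freedom, neither differences between mice nor dissection can be told apart from conditioning. Differences below the 3-count floor were not detectable.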

Other observations

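A fit of only the 10397 tested genes with 1 transcript called 18 genes, with p-values adjusted over these genes. Inhba was among them (log2 fold change 1.52), as were Plin4 (1.57, adjusted p = 0.00138 by edgeR) and Sult1a1 (0.74, adjusted p = 0.0302) of the glucocorticoid list. The 18 differences were not all shared by the strains. Plin4 had 14.1 CPM in FC and 3.44 CPM in naive S1 BLA, but 1.05 and 0.655 CPM in FC and naive B6 BLA. Other genes of the 18 moved almost only in B6 or almost only in S1. Matn2, which encodes the matrix protein matrilin 2, had 87.7 and 67.2 CPM in FC B6 and S1 BLA, against 72.2 and 45.7 CPM in naive B6 and S1 BLA. Calb2, which encodes the interneuron calcium buffer calretinin, had 45.5 and 58.4 CPM in FC B6 and S1, against 39.2 and 25.6 CPM in naive B6 and S1, so that S1 carried most of its difference.

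Lower in that fit were Tnc (−0.72, adjusted p = 0.0078) and Cntn2 (−0.40, adjusted p = 0.0391), an adhesion molecule of axons at the edge of the node. Cntn2 had 83.4 and 113 CPM in FC B6 and S1, against 120.1 and 135 CPM in naive B6 and S1. Trf, transferrin, which oligodendrocytes make, had 146 and 90.6 CPM in FC B6 and S1, against 182 and 122 CPM in naive B6 and S1. The strain pairs differed by at least 2-fold in their conditioning difference for 1.23% of 8874 genes with 1 transcript and for 2.37% of 4900 genes with more, at a mean of 1 CPM or above.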
